A study of Homo sapiens with 4 samples.

Results

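The 10 genes described here encode the AP-1 subunits and their immediate early companions: FOS, FOSB, FOSL1 and FOSL2 of the Fos family, JUN, JUNB and JUND of the Jun family, the zinc finger factor EGR1, and IER2 and IER3. They were chosen by gene symbol, with earlier results of these data known. All 10 were found among the 27629 genes listed in at least 1 of the 4 deposited tables and in each of the tables. Expression was measured by RNA-seq of total RNA from the established human bladder cancer line UM-UC-3, transfected with 75 nM siRNA by a lipid reagent. The control library came from cells given a negative control siRNA, and the si-hnRNPK, si-PTBP1 and si-lncRNA-LBCS libraries came from cells given 2 siRNAs each against hnRNPK (a poly(C)-binding RNA-binding protein), PTBP1 (a polypyrimidine tract-binding splicing regulator) or the long noncoding RNA lncRNA-LBCS. The study's methods state 48 h of transfection for the control and si-hnRNPK cells. Every condition is 1 library, so no difference below has a replicate check, and no p-value is given.

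AP-1 is a family of leucine zipper dimers. Jun proteins pair with themselves or with Fos proteins, whereas Fos proteins need a partner such as Jun, and the dimers bind a short palindrome at many growth, invasion and inflammation genes. Most of the genes are switched on within minutes of a growth factor or stress signal through SRF, ELK and CREB factors at their promoters, and transcripts such as FOS are removed quickly through AU-rich elements in the 3′ UTR. EGR1 is a DNA-binding factor, IER2 is a small nuclear protein, and IER3 is a stress-induced regulator of survival and ERK signalling that is not itself a DNA-binding factor.

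By GENCODE 29 on GRCh38 the genes lie on 7 chromosomes, and 4 of them are on chromosome 19. FOS (ENSG00000170345) lies at chr14:75278774-75282230, FOSB (ENSG00000125740) at chr19:45467995-45475179 and FOSL2 (ENSG00000075426) at chr2:28392448-28417312, all on the plus strand, and FOSL1 (ENSG00000175592) lies at chr11:65892049-65900573 on the minus strand. JUN (ENSG00000177606) lies at chr1:58780788-58784327 and JUND (ENSG00000130522) at chr19:18279760-18281622, both on the minus strand, and JUNB (ENSG00000171223) lies at chr19:12791496-12793315 on the plus strand. JUN and JUNB are single-exon genes. EGR1 (ENSG00000120738) lies at chr5:138465490-138469315 and IER2 (ENSG00000160888) at chr19:13150415-13154908, both on the plus strand, and IER3 (ENSG00000137331) lies at chr6:30743199-30744554 on the minus strand.

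The siRNAs are shown because they are what differed between the libraries. They are given 5′ to 3′ as the sense strand, and the capitals mark the 7 bases that pair with the guide strand's seed (guide bases 2 to 8).
control siRNA: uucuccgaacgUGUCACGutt
si-hnRNPK siRNA 1: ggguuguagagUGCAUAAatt
si-hnRNPK siRNA 2: gccuccaucuaGAAGAGAutt
si-PTBP1 siRNA 1: gccucaacgucAAGUACAatt
si-PTBP1 siRNA 2: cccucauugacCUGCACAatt
si-lncRNA-LBCS siRNA 1: gcugcucauuuGUCUGAUctt
si-lncRNA-LBCS siRNA 2: ggugguagucaACACAAAutt

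The 19 paired bases of the hnRNPK siRNAs matched HNRNPK and its processed pseudogenes, and those of the PTBP1 siRNAs matched PTBP1 and no other annotated gene. HNRNPK stood at 783.1 CPM (the reads of a gene scaled to a common total per library) in the control library and 187.8 CPM with si-hnRNPK, and PTBP1 dropped to 89.7 CPM with si-PTBP1 from 280.0 CPM in control. HNRNPK was thus at 24.0% of control and PTBP1 at 32.0% in their own libraries. Both siRNAs against lncRNA-LBCS matched AL022068.1, which stood at 1.79 CPM (110 reads) in the control library and 1.47 CPM (103 reads) in the si-lncRNA-LBCS-labelled library, a ratio of 0.818 with a 95% interval of 0.619 to 1.08. That interval includes 1 and covers counting error only, and the library is named below by its label. AL022068.1 stood at 3.43 CPM with si-hnRNPK and 3.82 CPM with si-PTBP1, above both of these levels. The libraries held 54301152 to 70232674 reads on listed genes. Of 14 epithelial and urothelial markers, 4 or 5 reached 1 CPM in each library, and KRT18 (75.2 to 121.4 CPM) and KRT8 (63.0 to 94.8 CPM) made up most of their sum of 155.4 to 218.8 CPM. The epithelial markers CDH1 and UPK3A were not listed in any table and EPCAM was at most 0.0178 CPM, whereas the mesenchymal marker VIM stood at 1417 to 2343 CPM. The mesenchymal FN1 was at 57.2, 188.7, 211.1 and 78.0 CPM under control, si-hnRNPK, si-PTBP1 and si-lncRNA-LBCS siRNA. The basal epithelial TP63 was at 0.342, 2.50, 2.37 and 0.513 CPM in the same order. Both were past the 2-fold threshold, explained below, with si-hnRNPK and si-PTBP1, and no other marker passed it in any comparison. KRT18 was highest in control, and KRT8 was lowest there. VIM was highest in control, and CDH2, the third mesenchymal marker, was lowest there, at 47.1 against 66.9 to 78.6 CPM. Their part in the results below was not tested. White blood cell markers summed to at most 2.93 CPM and endothelial markers to at most 0.166 CPM, and PTPRC, CD3E and PECAM1 were not listed.

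None of the siRNAs had a site for all 19 bases in a transcript of the 10 genes. In the longest annotated 3′ UTR (GENCODE 29, GRCh38), the si-hnRNPK siRNAs had a 7-base seed match in 2 of the 10 genes, FOSB and JUND, and the si-PTBP1 siRNAs in 1, FOSL2. These 3 sites are shown because they are the places where an hnRNPK or PTBP1 siRNA shares seed letters with one of the genes described here, with the match in capitals: FOSB at chr19:45473089-45473115 (plus strand), JUND at chr19:18280032-18280058 (minus strand) and FOSL2 at chr2:28414283-28414309 (plus strand).
FOSB with si-hnRNPK siRNA 2: agagagagggGAAGAGAcaaagtgggt
JUND with si-hnRNPK siRNA 2: tttttctttgGAAGAGAgaagaacaga
FOSL2 with si-PTBP1 siRNA 1: cgtatgcttaAAGTACAtgggccagtg
The 7 letters of si-hnRNPK siRNA 2 occurred in 19.6% of 11915 3′ UTRs and those of si-PTBP1 siRNA 1 in 13.1%. The siRNAs against lncRNA-LBCS had a match in 4 of the 10 genes (FOSB, FOSL2, JUN and IER3), and the control siRNA in 1, IER3. The shares over all 3′ UTRs were 9.38% and 18.2% for si-lncRNA-LBCS siRNAs 1 and 2, and 3.21% for the control siRNA. FOSL1 held no 7-base match to any of the siRNAs. A 6-base match, which pairs with fewer guide bases, was found in 7 genes for si-hnRNPK, 2 for si-PTBP1, 6 for si-lncRNA-LBCS and 2 for the control siRNA. The share of all 3′ UTRs with a 6-base match, or with a 7-base match to either of 2 siRNAs, was not counted. The part of seed pairing in the levels of the 10 genes was not tested.

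The promoters of FOS, FOSB, JUND and EGR1 are shown because these 4 genes were past the 2-fold threshold, explained below, in both the si-hnRNPK and the si-PTBP1 library. RefSeq sequences (GRCh38.p14, 250 bases before to 50 bases after the transcript start) were at hand for 8 of the 10 genes, and FOSL1 and IER3 had no entry. Capitals mark the letters TGACG or its reverse complement CGTCA (the core of a CREB/ATF site, part of TGACGTCA), the TATA box letters TATAAA and the CArG box bound by SRF. The windows are FOS at chr14:75278578-75278877 (plus strand), FOSB at chr19:45467746-45468045 (plus strand), JUND at chr19:18281573-18281872 (minus strand) and EGR1 at chr5:138465229-138465528 (plus strand).
FOS promoter: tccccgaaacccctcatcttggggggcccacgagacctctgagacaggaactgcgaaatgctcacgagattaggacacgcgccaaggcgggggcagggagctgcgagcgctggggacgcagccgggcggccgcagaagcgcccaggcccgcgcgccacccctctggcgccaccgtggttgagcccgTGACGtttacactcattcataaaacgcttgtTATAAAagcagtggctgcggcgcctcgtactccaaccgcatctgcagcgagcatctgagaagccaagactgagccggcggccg
FOSB promoter: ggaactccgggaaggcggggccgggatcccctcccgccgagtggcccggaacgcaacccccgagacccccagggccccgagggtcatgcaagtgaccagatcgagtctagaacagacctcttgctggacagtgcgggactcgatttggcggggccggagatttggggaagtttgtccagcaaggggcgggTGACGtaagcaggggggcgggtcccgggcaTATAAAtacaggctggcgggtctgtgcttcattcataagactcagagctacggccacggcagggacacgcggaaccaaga
JUND promoter: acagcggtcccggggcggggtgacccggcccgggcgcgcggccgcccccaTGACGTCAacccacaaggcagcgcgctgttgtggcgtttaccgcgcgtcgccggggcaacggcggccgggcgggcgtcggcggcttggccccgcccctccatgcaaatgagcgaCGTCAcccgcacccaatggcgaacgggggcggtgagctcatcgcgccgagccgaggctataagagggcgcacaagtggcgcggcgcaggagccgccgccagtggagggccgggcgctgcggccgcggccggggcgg
EGR1 promoter: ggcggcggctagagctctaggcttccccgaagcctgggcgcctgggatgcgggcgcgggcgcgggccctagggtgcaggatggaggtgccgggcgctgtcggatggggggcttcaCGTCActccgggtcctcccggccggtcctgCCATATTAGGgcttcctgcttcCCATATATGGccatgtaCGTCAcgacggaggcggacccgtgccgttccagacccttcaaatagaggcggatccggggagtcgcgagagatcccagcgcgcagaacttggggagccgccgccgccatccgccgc
FOS held TGACG 64 bases upstream of its start and TATAAA 33 bases upstream, and FOSB held them at 60 and 30 bases. The CArG box was found in 1 of the 8 promoters, EGR1, against 1.29% of the 35116 promoters of the same length. EGR1 held 2 of these boxes, 105 and 83 bases upstream. Letters more than 250 bases upstream of a start were not searched. JUND held the full TGACGTCA 200 bases upstream and a further CGTCA 86 bases upstream. TGACG on either strand was found in all 8 promoters at hand, against 24.6% of all promoters. The AP-1 letters TGANTCA were found in 1 of the 8, FOSL2, against 7.71% of all promoters, and the related TGACATCA in JUN only among the 8, 67 bases upstream, against 2.61%. A run of 6 C on either strand, letters of the kind hnRNPK binds in nucleic acid, occurred in 7 of the 8 promoters (all but JUND) and in 18.8% of all promoters. The 8 windows were rich in G and C, at 62% (JUN) to 77% (JUND) of bases. No letters here were compared with promoters of like G and C content. TATAAA was found in FOS, FOSB and JUNB, against 11.5% of all promoters. These matches describe letters in a window and are not evidence of binding.

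A gene was counted as past the threshold where log2(CPM + 1) differed from control by at least 1 and at least 1 CPM was reached in either library. In the si-hnRNPK library 6 of the 10 genes were past the threshold upwards (FOS, FOSB, JUNB, JUND, EGR1 and IER3) and 1 downwards (FOSL1). Over all 13672 genes tested in that comparison, 3.55% were past the threshold upwards and 3.93% downwards. In the si-PTBP1 library 4 genes were past it upwards (FOS, FOSB, JUND and EGR1) and 0 downwards, where the shares over 13855 genes were 2.92% and 0.613%. In the si-lncRNA-LBCS-labelled library 0 of 9 tested genes were past it upwards and 1, FOSL1, downwards, where the shares over 13492 genes were 0.378% and 1.01%. EGR1 did not reach 1 CPM there. The genes were chosen with earlier results of these data known, so the shares over all genes are a description and not a test. The same shares are the background for the counts of other gene lists below, which were chosen in the same way. Against the geometric mean of the other 3 libraries in place of control, 5 members were past the threshold upwards with si-hnRNPK and 1, EGR1, with si-PTBP1. Under that reference JUND and EGR1 with si-hnRNPK (0.43 and 0.60) and FOS, FOSB and JUND with si-PTBP1 (0.66, 0.85 and 0.62) were short of it, and JUN with si-hnRNPK (1.02) was past it. The median difference of the tested members was 1.07, 0.79 and 0.08 in the si-hnRNPK, si-PTBP1 and si-lncRNA-LBCS comparisons, against -0.11, 0.12 and -0.01 over all tested genes. The 3 comparisons use the same control library, so a value that was unusual in that library would enter all of them. CPM are shares of a library of many cells, and a response in more cells cannot be told apart from more transcript per cell.

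**Figure D1:**
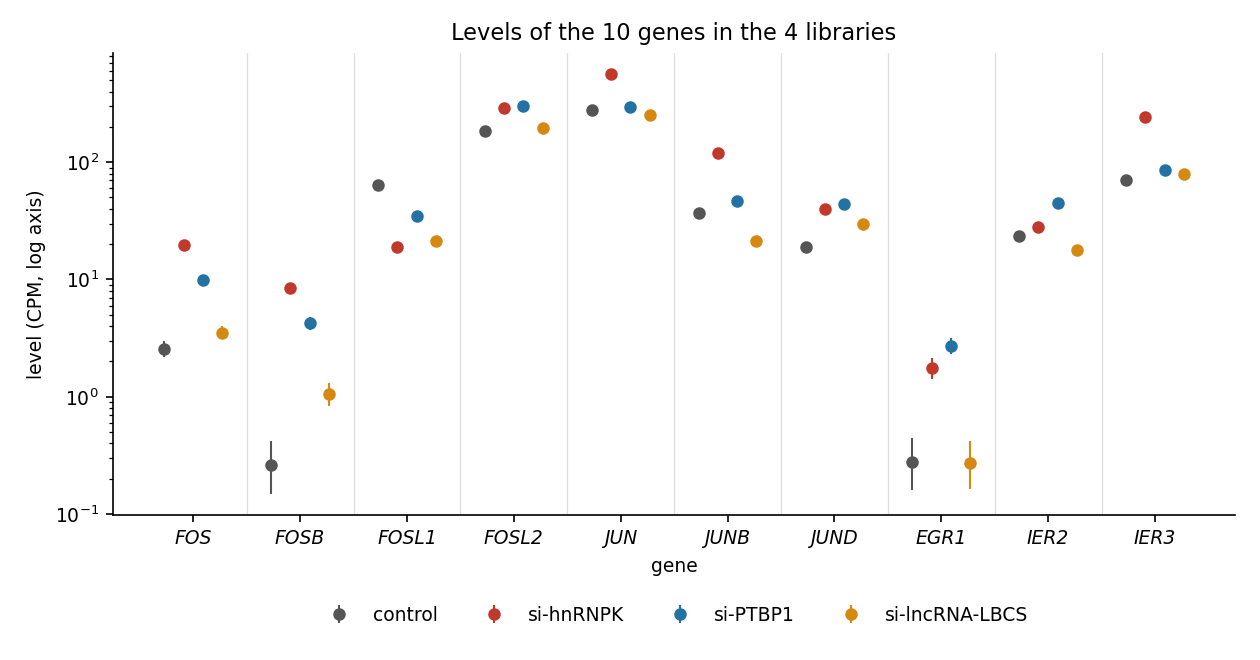
Level of each of the 10 genes (CPM, log axis) in the control, si-hnRNPK, si-PTBP1 and si-lncRNA-LBCS libraries, with 1 point per library and exact 95% Poisson intervals of the reads as bars. FOS and FOSB were lowest in the control library, FOSL1 was highest there, and JUN, JUNB and IER3 were highest in the si-hnRNPK library.

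FOS, the founding Fos protein, stood at 2.56 CPM with control siRNA, 19.7 CPM with si-hnRNPK, 9.97 CPM with si-PTBP1 and 3.53 CPM in the si-lncRNA-LBCS-labelled library. The 4 levels rest on 157, 1070, 559 and 248 reads. FOS rose 7.70-fold in the si-hnRNPK library (95% counting interval 6.51 to 9.17) and 3.90-fold in the si-PTBP1 library (3.26 to 4.68), so the knockdowns of both RNA-binding proteins stood well above the remaining pair of libraries. Its ratio to control in the si-lncRNA-LBCS-labelled library was 1.38 (1.13 to 1.70), short of the threshold. Compared directly, FOS was 1.98 times as high in the si-hnRNPK as in the si-PTBP1 library (1.78 to 2.19). In the si-hnRNPK comparison 0.249% of tested genes had a larger difference than FOS, and in the si-PTBP1 comparison 0.383%.

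FOSB, the closest relative of FOS, was barely present in the control library at 0.261 CPM. It stood at 8.47 CPM with si-hnRNPK, 4.24 CPM with si-PTBP1 and 1.05 CPM in the si-lncRNA-LBCS-labelled library. The control level rests on 16 reads, so the ratios of 32.5 (19.8 to 57.3) for si-hnRNPK and 16.3 (9.82 to 28.95) for si-PTBP1 have wide intervals. On the log2(CPM + 1) scale, which understates the change of low genes, FOSB rose by 2.91 in the si-hnRNPK and 2.06 in the si-PTBP1 library. Its ratio in the si-lncRNA-LBCS-labelled library was 4.04 (2.33 to 7.44) on 74 reads, a difference of 0.70 on the log2(CPM + 1) scale that was short of the threshold and was past it, at 1.68, with a pseudocount of 0.1. FOSB and FOS had the same order of libraries, with si-hnRNPK first, si-PTBP1 second, si-lncRNA-LBCS next and control last. FOSB lies within the annotated span of ERCC1, a DNA repair gene on the opposite strand that stood at 96.3 to 149.0 CPM. No annotated exon of FOSB overlaps an ERCC1 exon.

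FOSL1, which encodes FRA-1, the Fos protein most associated with invasive carcinoma cells, had the opposite pattern. It stood at 64.2 CPM with control siRNA and at 18.7, 34.6 and 21.3 CPM in the si-hnRNPK, si-PTBP1 and si-lncRNA-LBCS libraries. All 3 siRNA libraries were below control, on 1018 to 3940 reads per library. FOSL1 fell to 29.2% of control in the si-hnRNPK library (interval of the ratio 0.272 to 0.313) and to 33.2% in the si-lncRNA-LBCS-labelled library (0.313 to 0.353). It was at 53.9% of control in the si-PTBP1 library (0.510 to 0.570), a difference of -0.87 that was short of the threshold. Only 0.197% of tested genes had a lower difference than FOSL1 in the si-hnRNPK comparison and 0.215% in the si-lncRNA-LBCS comparison. Against the geometric mean of the other 3 libraries in place of control, FOSL1 was at -0.92 for si-hnRNPK, -0.68 for si-lncRNA-LBCS and 0.22 for si-PTBP1, so both calls of a fall rest on the control library. Of the 2026 stretches of 50 bases in FOSL1 transcripts, 59 (2.91%) were shared with the pseudogene FOSL1P1.

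FOSL2, which encodes FRA-2, differed less between the libraries. It stood at 185.9 CPM with control siRNA, 288.8 CPM with si-hnRNPK, 298.6 CPM with si-PTBP1 and 196.7 CPM in the si-lncRNA-LBCS-labelled library. The ratios to control were 1.55 (1.52 to 1.59), 1.61 (1.57 to 1.65) and 1.06 (1.03 to 1.08), and none reached the threshold. The si-hnRNPK and si-PTBP1 libraries were close to each other, at a ratio of 0.967 (0.946 to 0.989). With median-of-ratios scaling FOSL2 differed from control by 0.75 with si-hnRNPK and 0.56 with si-PTBP1, so this order depends on the scaling.

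Because a longer transcript gives more reads, levels of different genes were compared only as CPM per kilobase of annotated exon. On that scale the Fos family summed to 60.8 with control siRNA, 57.9 with si-hnRNPK, 63.9 with si-PTBP1 and 40.1 in the si-lncRNA-LBCS-labelled library. The sum of the family was thus similar in the control, si-hnRNPK and si-PTBP1 libraries while its makeup differed. FOSL1 made up 55.9% of the Fos family sum under control siRNA, against 17.2%, 28.7% and 28.2% in the si-hnRNPK, si-PTBP1 and si-lncRNA-LBCS libraries. FOSL2 made up 42.7% in the control library and 69.7%, 65.3% and 68.6% in the others, in the same order. FOS and FOSB together remained the smaller part: FOS was at 1.30% of the sum in control, 10.5% in si-hnRNPK, 4.82% in si-PTBP1 and 2.72% in si-lncRNA-LBCS, and FOSB was at most 2.63%. The leading Fos gene per kilobase was therefore FOSL1 in the control library and FOSL2 in each of the other 3.

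**Figure D2:**
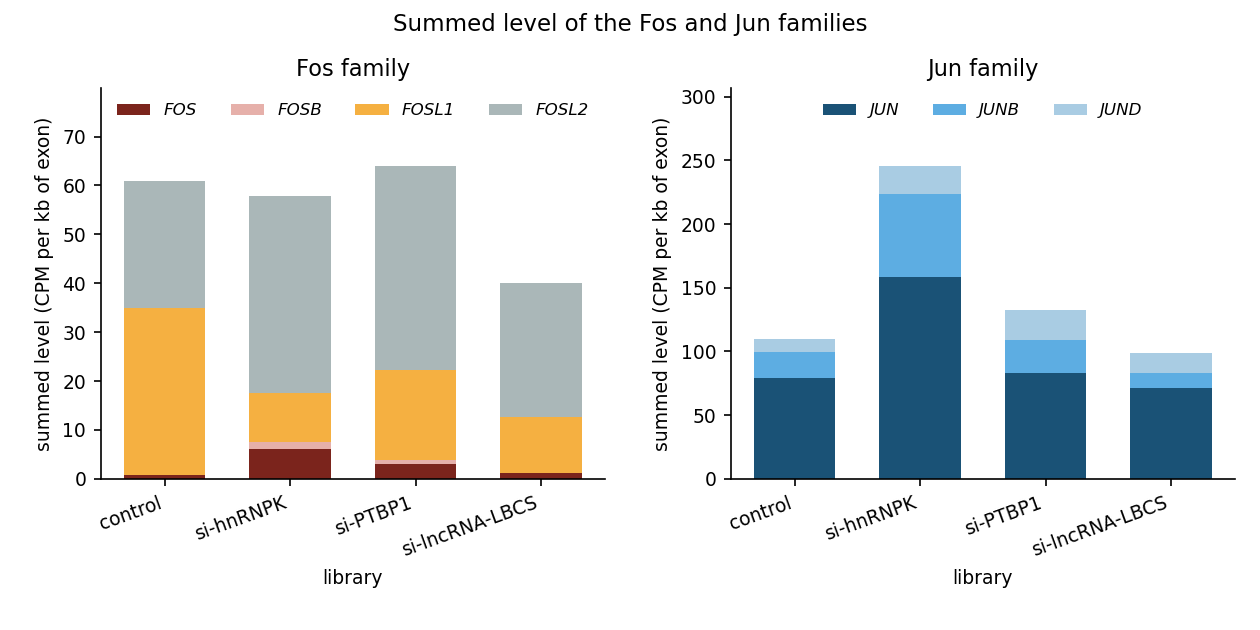
Summed level (CPM per kilobase of annotated exon, axes from 0) of the Fos family on the left and the Jun family on the right in each library, with the genes stacked. The Fos sum lay between 40.1 and 63.9 with FOSL1 largest in control and FOSL2 largest elsewhere, and the Jun sum was 245.3 in the si-hnRNPK library against 98.9 to 132.4 in the others.

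JUN, the main partner of the Fos proteins, had the highest level per kilobase of exon of the 7 AP-1 genes in every library. It stood at 281.1 CPM with control siRNA, 560.4 CPM with si-hnRNPK, 295.2 CPM with si-PTBP1 and 252.0 CPM in the si-lncRNA-LBCS-labelled library. Only the si-hnRNPK library stood apart. Its ratio to control was 1.99 (1.96 to 2.03), a difference of 0.993 (0.966 to 1.02) that missed the threshold of 1 by less than its counting interval and was past it with median-of-ratios scaling, at 1.10. The ratio was 1.05 (1.03 to 1.07) for si-PTBP1 and 0.896 (0.878 to 0.915) for si-lncRNA-LBCS. With median-of-ratios scaling the si-PTBP1 difference of JUN was -0.06 in place of 0.07, so its direction depends on the scaling. JUN was 1.90 times as high in the si-hnRNPK as in the si-PTBP1 library (1.86 to 1.93).

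JUNB, often an antagonist of JUN in growth control, passed the threshold in the si-hnRNPK library alone. It stood at 36.7 CPM with control siRNA, 119.5 CPM with si-hnRNPK, 46.3 CPM with si-PTBP1 and 21.3 CPM in the si-lncRNA-LBCS-labelled library. The ratios to control were 3.26 (3.11 to 3.42), 1.26 (1.19 to 1.34) and 0.580 (0.543 to 0.619), of which the first passed the threshold. JUNB was 2.58 times as high in the si-hnRNPK as in the si-PTBP1 library (2.47 to 2.70). The exons of JUNB share 14.2% of their bases with exons of HOOK2 on the opposite strand, which stood at 3.24 to 6.62 CPM, and whether the counting used strand is not given in the sources used here.

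JUND, the Jun protein that is usually present in resting cells, followed another order. It stood at 18.8 CPM with control siRNA, 39.8 CPM with si-hnRNPK, 43.9 CPM with si-PTBP1 and 29.9 CPM in the si-lncRNA-LBCS-labelled library. JUND rose 2.11-fold (1.97 to 2.27) in the si-hnRNPK library, just past the threshold with a difference of 1.04 (0.94 to 1.14), and 2.33-fold (2.17 to 2.50) in the si-PTBP1 library. Its ratio was 1.59 (1.48 to 1.71) in the si-lncRNA-LBCS-labelled library, short of the threshold. All 3 siRNA libraries were above control. The si-hnRNPK library stood at 0.906 of the si-PTBP1 library (0.854 to 0.960), the reverse of the order of JUN and JUNB. With median-of-ratios scaling JUND differed from control by 1.15 with si-hnRNPK and 1.06 with si-PTBP1, so this order depends on the scaling.

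Per kilobase of exon the Jun family summed to 109.7 with control siRNA, 245.3 with si-hnRNPK, 132.4 with si-PTBP1 and 98.9 in the si-lncRNA-LBCS-labelled library. JUN made up most of the sum in each library, from 63.0% in si-PTBP1 to 72.4% in control. The share of JUNB was highest in the si-hnRNPK library, at 26.8% against 18.4% in control. The share of JUND was 17.8% in si-PTBP1 and 16.2% in si-lncRNA-LBCS, against 9.22% in control and 8.71% in si-hnRNPK.

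EGR1, the growth factor-induced zinc finger factor with the pair of CArG boxes shown above, was close to absent under control siRNA as well as in the si-lncRNA-LBCS-labelled library. It stood at 0.277 CPM (17 reads) in control, 1.75 CPM (95 reads) in si-hnRNPK, 2.71 CPM (152 reads) in si-PTBP1 and 0.271 CPM (19 reads) in si-lncRNA-LBCS. EGR1 rose 6.32-fold (3.74 to 11.3) in the si-hnRNPK library and 9.79-fold (5.91 to 17.2) in the si-PTBP1 library. Its ratio in the si-lncRNA-LBCS-labelled library was 0.977 (0.481 to 2.0). EGR1 was lower in the si-hnRNPK than in the si-PTBP1 library, at a ratio of 0.645 (0.494 to 0.839), and no library reached 5 CPM.

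IER3 stood at 70.4 CPM with control siRNA, 242.2 CPM with si-hnRNPK, 86.5 CPM with si-PTBP1 and 79.1 CPM in the si-lncRNA-LBCS-labelled library. Like JUNB, it passed the threshold in the si-hnRNPK library alone, with a 3.44-fold rise (3.32 to 3.56), and the ratios in the others were 1.23 (1.18 to 1.28) and 1.12 (1.08 to 1.17). It was 2.80 times as high in the si-hnRNPK as in the si-PTBP1 library (2.71 to 2.89). IER2 did not pass the threshold in any library. It stood at 23.7 CPM in control, 28.1 CPM in si-hnRNPK, 45.3 CPM in si-PTBP1 and 18.01 CPM in si-lncRNA-LBCS, and its ratio was highest for si-PTBP1, at 1.91 (1.79 to 2.04). The antisense genes IER3-AS1 and AC011446.2 share 26.5% of the exon bases of IER3 and 30.8% of those of IER2, and neither is listed in a table, so reads of these partners cannot be told apart from those of the genes if strand was not used.

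**Figure D3:**
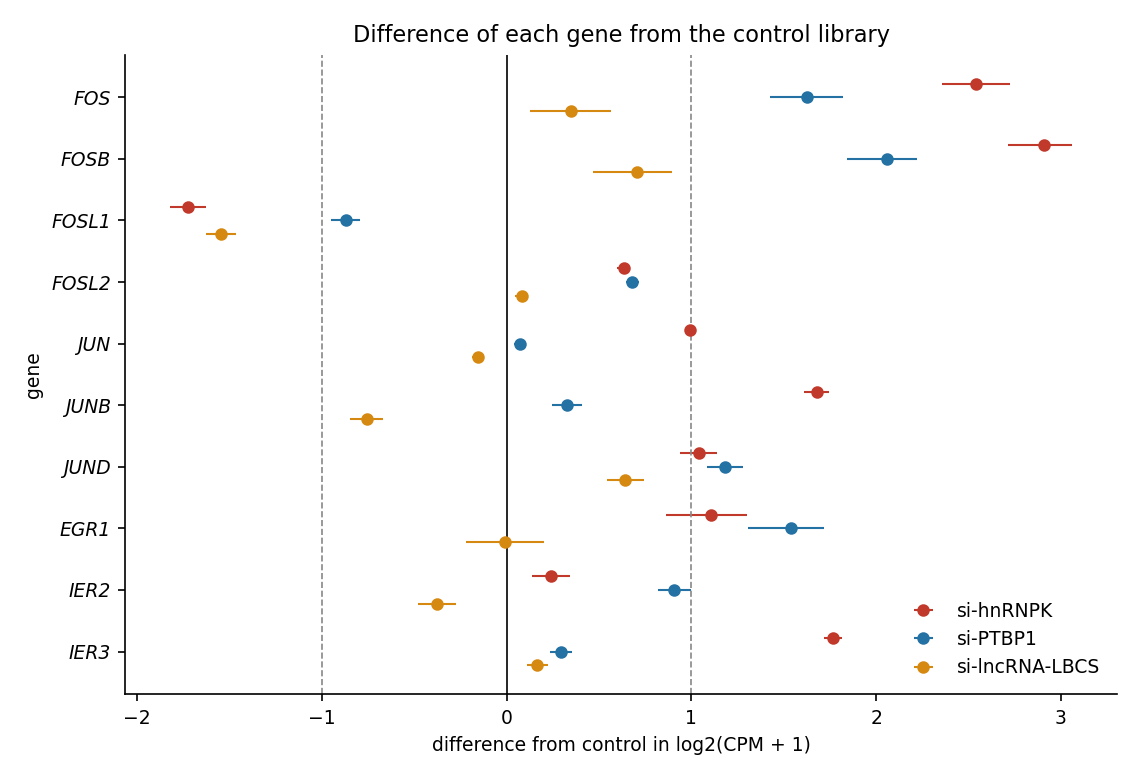
Difference of each gene from the control library in log2(CPM + 1), with 95% counting intervals as bars, for the si-hnRNPK, si-PTBP1 and si-lncRNA-LBCS libraries. The dashed lines mark the threshold of 1 in each direction, with FOS and FOSB beyond it for si-hnRNPK and si-PTBP1, JUNB and IER3 beyond it for si-hnRNPK alone, and FOSL1 below -1 for si-hnRNPK and si-lncRNA-LBCS.

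Set side by side, the direct ratios of the si-hnRNPK to the si-PTBP1 library put FOS, FOSB, JUN, JUNB and IER3 higher with si-hnRNPK (1.90 to 2.80) and FOSL1, EGR1 and IER2 lower (0.542 to 0.645). FOSL2 (0.967) and JUND (0.906) were nearest to 1. These ratios do not use the control library, and for FOSL2 and JUND the order of the si-hnRNPK and si-PTBP1 libraries depends on the scaling. All 10 genes were higher in the si-PTBP1 library than in the si-lncRNA-LBCS-labelled library. FOS, FOSB, EGR1, IER2 and JUNB were more than 2-fold higher, by 2.82 (2.43 to 3.29), 4.03 (3.09 to 5.30), 10.0 (6.20 to 17.1), 2.52 (2.35 to 2.69) and 2.17 (2.04 to 2.32) times, and the ratios of the other genes ran from 1.09 (IER3) to 1.62 (FOSL1). The shares of all genes higher, or more than 2-fold higher, in this direct comparison were not counted, so these counts have no background here. Against control, 63.5% of tested genes were above 0 with si-PTBP1 and 48.2% with si-lncRNA-LBCS. With median-of-ratios scaling IER3 differed from control by 0.17 with si-PTBP1 and 0.18 with si-lncRNA-LBCS, so its order depends on the scaling.

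In the control library the order of the levels per kilobase ran from JUN (79.4 CPM per kb) through IER3 (51.9), FOSL1 (34.0), FOSL2 (26.0), JUNB (20.2), JUND (10.1), IER2 (7.71) and FOS (0.790) to EGR1 (0.0883) and FOSB (0.0469). The counting intervals of EGR1 (0.0514 to 0.141) and FOSB (0.0268 to 0.0762) overlapped, and those of all other neighbours in this order did not. In the si-hnRNPK library IER3 stood first at 178.6 CPM per kb and JUN second at 158.3, and FOSL1 moved from the third place to the sixth at 9.93, where its interval overlapped that of IER2 at 9.16. In all 4 libraries FOS, FOSB and EGR1 held the last 3 places. The intervals of JUNB and JUND overlapped in the si-PTBP1 library, as did those of EGR1 and FOSB, and those of JUNB and FOSL1 in the si-lncRNA-LBCS-labelled library.

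AU-rich elements, the 3′ UTR signals for quick removal of a transcript, were counted as the letters ATTTA and the longer TTATTTATT. Only FOS and FOSL2 held the longer element, 1 copy each, against 9.58% of 3′ UTRs. These are shown with the element in capitals: FOS at chr14:75282060-75282088 and FOSL2 at chr2:28416355-28416383, both on the plus strand.
FOS: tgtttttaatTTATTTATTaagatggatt
FOSL2: atttattttaTTATTTATTttaaatgttt
IER3 had 6 copies of ATTTA (6.64 per kilobase of 3′ UTR), FOS had 5 (6.20 per kilobase) and JUNB had 2 (4 per kilobase), against a median of 1.72 per kilobase over all 3′ UTRs. A higher density than that of IER3 was found in 3.27% of 3′ UTRs, and a higher density than that of FOS in 4.35%. FOSB, EGR1, JUND and FOSL1 had 0.810 to 1.47 copies per kilobase, below the median, and IER2 had 0. Of 8 genes of AU-rich element binding proteins, HNRNPD, which encodes AUF1, fell in the si-hnRNPK library, from 59.1 to 22.6 CPM (-1.35), and no other passed the threshold in any library. ZFP36, which encodes the decay factor tristetraprolin, stood at 2.80, 5.98, 3.76 and 2.89 CPM in the control, si-hnRNPK, si-PTBP1 and si-lncRNA-LBCS libraries. The median of the 8 genes was -0.39, 0.08 and -0.25 in the si-hnRNPK, si-PTBP1 and si-lncRNA-LBCS comparisons.

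The upstream kinases and transcription factors of the pathway were counted from a list of 23 genes of ERK, JNK and p38 kinases, their activators, SRF, ELK factors, CREB1 and the EGR1 corepressors NAB1 and NAB2. None of the 22 or 23 tested genes passed the threshold in any library, and the medians were -0.06, 0.27 and 0.05 for si-hnRNPK, si-PTBP1 and si-lncRNA-LBCS. SRF, which binds the CArG box, stood at 56.4 CPM in control, 96.2 CPM in si-hnRNPK, 98.9 CPM in si-PTBP1 and 65.0 CPM in si-lncRNA-LBCS, differences of 0.76, 0.80 and 0.20. It was the highest difference of the list in the si-hnRNPK comparison. Transcript levels do not report the phosphorylation by which these proteins act.

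Of 12 tested MAPK phosphatases and feedback inhibitors, 3 rose in the si-hnRNPK library and 1 fell. DUSP8, a phosphatase of JNK and p38, rose from 0.652 to 3.98 CPM (1.59), DUSP6, the cytoplasmic phosphatase of ERK, rose from 61.5 to 141.7 CPM (1.19), and DUSP16 rose from 19.9 to 44.3 CPM (1.11). SPRY4, a Sprouty inhibitor of receptor signalling, fell from 32.7 to 15.2 CPM (-1.06). In the si-PTBP1 library DUSP8 alone passed, at 3.995 CPM (1.60), and 0 of 11 tested genes passed in the si-lncRNA-LBCS-labelled library, where DUSP6 was at 35.2 CPM (-0.79) and SPRY4 at 17.6 CPM (-0.85). The medians of the list were 0.16, 0.15 and -0.33. DUSP1, which is an immediate early gene too, stood at 90.5, 137.0, 91.5 and 67.1 CPM in the control, si-hnRNPK, si-PTBP1 and si-lncRNA-LBCS libraries.

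Of 27 tested other immediate early genes, 6 rose with si-hnRNPK and 0 fell, of 28 tested 7 rose with si-PTBP1 and 0 fell, and of 27 tested none passed with si-lncRNA-LBCS. The largest with si-hnRNPK were CTGF (19.5 to 86.3 CPM, 2.09), a matricellular protein, the kinase PLK2 (116.4 to 488.5 CPM, 2.06), the kinase SGK1 (13.2 to 48.9 CPM, 1.82) and CYR61 (47.1 to 129.2 CPM, 1.44), a second matricellular protein. With si-PTBP1 they were IER5L (8.50 to 24.3 CPM, 1.41), the nuclear receptors NR4A2 (0.521 to 3.03 CPM, 1.41) and NR4A3 (0.228 to 1.85 CPM, 1.22), and the small GTPase RHOB (23.2 to 52.0 CPM, 1.13). SGK1 and RHOB were past the threshold in both of these comparisons, which share the control library: SGK1 was at 28.0 CPM (1.03) with si-PTBP1, and RHOB was at 49.3 CPM (1.05) with si-hnRNPK. CTGF and PLK2 stood at 25.2 and 120.4 CPM with si-PTBP1, close to their control levels. The medians of the list were 0.59, 0.37 and 0.00, and 25, 22 and 13 of its tested genes were above 0. Over all tested genes, 41.6%, 63.5% and 48.2% were above 0 in the same order. The shares past the threshold upwards were 3.55%, 2.92% and 0.378%. EGR2 and EGR4, the relatives of EGR1, were not listed, and EGR3 was at most 0.368 CPM.

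Among the 12 other dimer partners of AP-1, 9 were tested with si-hnRNPK and 2 rose. ATF3, a stress-induced ATF protein, rose from 1.71 to 11.99 CPM (2.26), and BATF2, an interferon-responsive partner of Jun proteins, rose from 0.831 to 16.1 CPM (3.22). With si-PTBP1 ATF3 was at 3.14 CPM (0.61) and BATF2 at 1.11 CPM (0.20), and JDP2, a repressor that pairs with JUN, fell from 13.6 to 3.73 CPM (-1.63). MAFF narrowly missed the threshold there, at 12.1 against 25.0 CPM (-0.99). None of the 8 tested partners passed with si-lncRNA-LBCS. The medians were 0.15, 0.09 and 0.15.

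Genes known as AP-1 targets did not move in a common direction with si-hnRNPK: 4 of 15 tested rose and 3 fell, with a median of -0.18. The collagenase MMP1 rose from 7.63 to 34.5 CPM (2.04), the chemokine CXCL8 rose from 37.2 to 147.6 CPM (1.96), HMOX1, the haem oxygenase, rose from 47.7 to 167.6 CPM (1.79) and the EGFR ligand HBEGF rose from 69.0 to 179.4 CPM (1.37). The gelatinase MMP9 fell from 50.3 to 11.3 CPM (-2.06), the cyclin CCND1 fell from 1187 to 295.2 CPM (-2.00) and the hyaluronan receptor CD44 fell from 495.4 to 225.2 CPM (-1.13). Rises and falls were thus of like size. With si-PTBP1 1 of 14 tested rose, the cytokine IL11 (62.7 to 136.9 CPM, 1.11), and 1 fell, MMP9 (to 4.89 CPM, -3.12), and the median was -0.29.

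In the si-lncRNA-LBCS-labelled library, where FOSL1 was the only one of the 10 genes past the threshold, 0 of the 14 tested AP-1 target genes rose and 7 fell. All 14 lay below 0, where 48.2% of all tested genes were above 0. The median was -0.95 against -0.01 over all tested genes. Among the falls were MMP9 (50.3 to 5.25 CPM, -3.04), HMOX1 (47.7 to 12.5 CPM, -1.85) and PLAU, the urokinase gene (1523 to 576.9 CPM, -1.40). PLAUR, CXCL8 and LIF were past the threshold too. MMP9 was below control with si-hnRNPK, si-PTBP1 and si-lncRNA-LBCS, at -2.06, -3.12 and -3.04. FOSL1 was at -1.72, -0.87 and -1.55 in the same order, and the 3 comparisons share the control library, where both genes were highest. HMOX1 and CXCL8 rose with si-hnRNPK and fell with si-lncRNA-LBCS. The part of FOSL1 in the levels of these target genes was not tested. PLAU stood at 1883 CPM with si-hnRNPK and 1531 CPM with si-PTBP1, neither past the threshold.

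**Figure D4:**
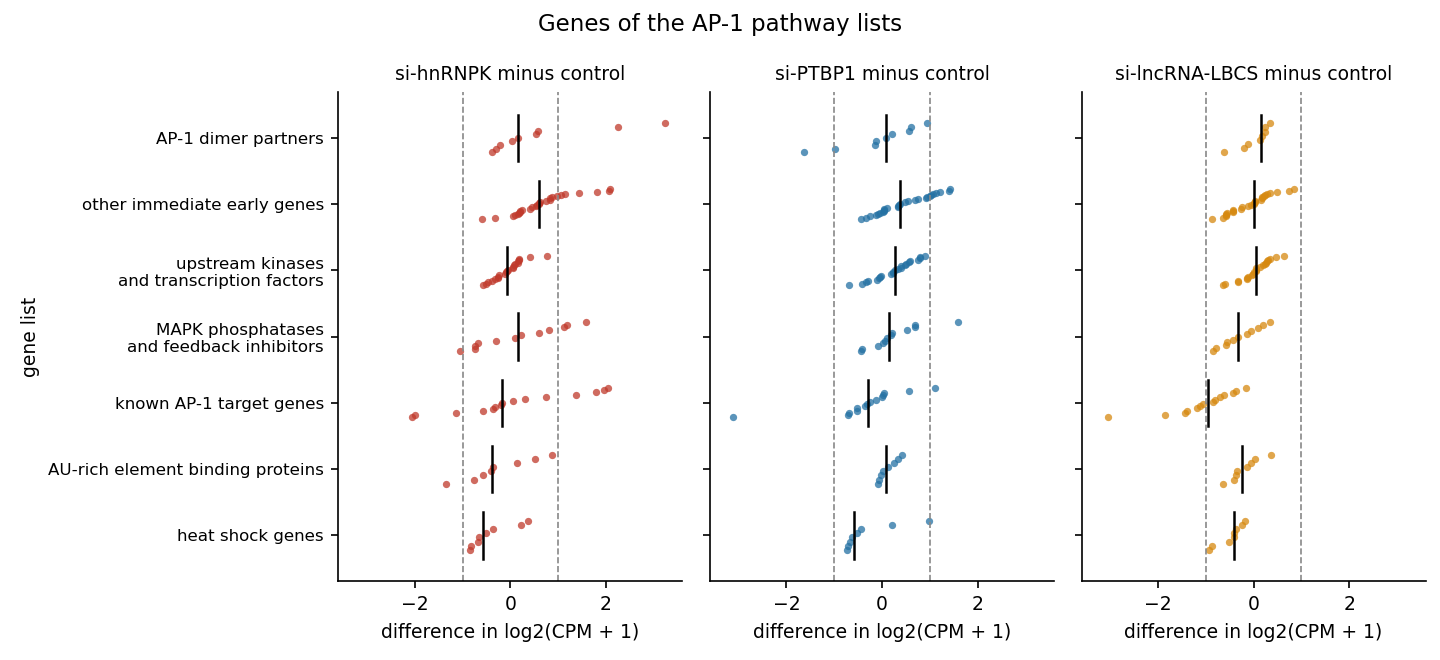
Difference from control in log2(CPM + 1) of each tested gene (points, sorted within a list) of 7 gene lists in the 3 comparisons, with black bars at the list medians and dashed lines at the threshold of 1 in each direction. The AP-1 target list lies wholly below 0 for si-lncRNA-LBCS, with a median of -0.95, and the upstream list lies within the dashed lines in all 3 panels.

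Heat shock genes, which respond to protein damage, were read as a measure of that kind of stress only. None of 8 tested genes passed the threshold in any library, and the medians were -0.58, -0.58 and -0.40. HSPA1A stood at 27.2, 31.9, 18.5 and 23.7 CPM in the control, si-hnRNPK, si-PTBP1 and si-lncRNA-LBCS libraries. HSPB1, a small heat shock protein, stood at 68.6, 89.2, 137.5 and 51.4 CPM in the same order, and narrowly missed the threshold with si-PTBP1 (0.993). The part of transfection or handling in the levels of the 10 genes was not tested.

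FOSB had the largest summed difference of the 10 genes over the 3 comparisons (5.67). Among 9425 genes with at least 10 CPM in a library, the 5 nearest to it by Euclidean distance of the 3 differences were FOS (0.67), CRIP2 (0.74), RBMS3 (0.80), ACTA2 (0.81) and GBP1 (0.87). CRIP2, a LIM domain protein, stood at 13.0, 67.5, 75.3 and 22.9 CPM in the control, si-hnRNPK, si-PTBP1 and si-lncRNA-LBCS libraries. ACTA2, smooth muscle actin, stood at 1.55, 24.2, 9.63 and 1.54 CPM, and GBP1, an interferon-induced GTPase, at 1.60, 27.4, 5.81 and 2.89 CPM. RBMS3, an RNA-binding protein, stood at 2.26, 16.0, 9.27 and 6.26 CPM. The nearness is over 3 differences that share 1 control library.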

How the data were processed

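Libraries of total RNA were sequenced as 100-base paired-end reads, with 1 library for each of 4 conditions. For each library the authors deposited a list of Ensembl identifiers with CPM, the reads of a gene scaled to a common total. The submitters' processing notes name hg19; the aligner, the counter, the annotation and the use of strand are not given in the sources used here. The CPM were whole multiples of 1 read for 100% of genes with reads (tolerance 0.001 of a read), so reads were recovered, and genes carrying a placeholder below 1 read were set to 0. Symbols matched 25647 of 27629 identifiers. Positions, exons and 3′ UTRs are from GENCODE release 29 and promoters from RefSeq, both on GRCh38, and no coordinate of the deposited files was used.

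Differences are in log2(CPM + 1) against control, among genes at 1 CPM or more in either library, with a threshold of 1. Each interval of a ratio or difference (95%, exact, Clopper-Pearson) comes from a gene's reads in the 2 libraries compared. Intervals of levels (95%, exact, Poisson) come from a gene's reads in 1 library. Both kinds cover counting error only. An exact binomial test of the reads (Benjamini-Hochberg adjusted, at most 0.05) compares libraries and not conditions, and it passed 10894, 10222 and 9513 of the tested genes with si-hnRNPK, si-PTBP1 and si-lncRNA-LBCS, so it was used as an alternative only. Every member and both siRNA targets are named, with up to 4 of the largest genes past the threshold of each other list and comparison, genes needed to read a member, and the 5 genes nearest to the member with the largest summed difference. Some genes of the lists are counted but not reported here by name. Genes at 0 or near the threshold and the levels of CTGF, PLK2 and PLAU in other libraries were added after values were seen. The members and lists were chosen with earlier results of these data known. The scripts were tested on simulated data. Alternatives were other pseudocounts, filters, thresholds, scaling and reference. The scripts ran on Python 3.11.15 with scipy 1.17.1, numpy 2.4.6, matplotlib 3.10.9 and pandas 2.3.3.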

Additional observations from a re-analysis of the deposited data

How the results depend on the processing

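No paired analysis was possible because each condition is 1 library, and leaving out a replicate was not possible for the same reason. Of 96 counts under the alternatives 64 stayed within 1.5 times the main count. Of 120 alternative member differences 63 lay within the counting interval of the main value, and 0 turned a call around. Only members past the threshold in the main setting could count as turned around. Some members short of it did change sign. With the geometric mean of the other 3 libraries as reference, FOS with si-lncRNA-LBCS went from 0.35 to -1.04 and FOSL1 with si-PTBP1 from -0.87 to 0.22. Dropping the filter could not change a count. A difference of at least 1 in log2(CPM + 1) already needs at least 1 CPM in the higher library. Adding the binomial test changed no count either, and most tested genes pass that test. Both kinds of count are among the 64.

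With the geometric mean of the other 3 libraries as the reference, members past the threshold were 0 downwards with si-hnRNPK, 1 upwards with si-PTBP1 and 2 downwards with si-lncRNA-LBCS (FOS at -1.04 and JUNB at -1.43), and genes past it were 317 upwards with si-hnRNPK, 234 upwards with si-PTBP1 and 6 upwards with si-lncRNA-LBCS. Under that reference JUND and EGR1 with si-hnRNPK were at 0.43 and 0.60, and FOS, FOSB and JUND with si-PTBP1 at 0.66, 0.85 and 0.62, all short of the threshold. By its construction this reference takes in the other siRNA libraries.

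A filter of 5 CPM left 2 members upwards with si-PTBP1. The threshold of 1.5-fold gave 1 member downwards with si-PTBP1 (FOSL1), 2 upwards and 2 downwards with si-lncRNA-LBCS, and 1352 genes upwards and 2165 downwards with si-hnRNPK, 1673 and 432 with si-PTBP1, and 559 and 774 with si-lncRNA-LBCS. A pseudocount of 0.1 gave 1 member upwards with si-lncRNA-LBCS (FOSB), and 790 genes upwards and 995 downwards with si-hnRNPK, 793 and 173 with si-PTBP1, and 165 and 353 with si-lncRNA-LBCS. No pseudocount with a floor of 3 reads, chosen after seeing the data, gave 1 member (FOSB), and 820 and 1059, 862 and 193, and 199 and 395 genes in the same order.

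The median-of-ratios factors (log2) of the si-hnRNPK, si-PTBP1 and si-lncRNA-LBCS libraries were -0.11, 0.13 and -0.01 relative to control, and dividing by them moved the differences of the members the opposite way (JUN to 1.10 and -0.06 with si-hnRNPK and si-PTBP1). This scaling gave 257 genes upwards and 133 downwards with si-PTBP1. The length of the longest coding transcript, also chosen after seeing the data, kept 10, 10, 8 and 8 of the 10 genes at their place in the order per kilobase in the control, si-hnRNPK, si-PTBP1 and si-lncRNA-LBCS libraries. The reads of EGR1 (17) and FOSB (16) in the control library limit their ratios.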
